A study of Mus musculus with 48 samples.

Results

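The Wnt ligands described here are 8 genes of the deposited dentate gyrus count table, Wnt2, Wnt4, Wnt5a, Wnt5b, Wnt7a, Wnt7b, Wnt9a and Wnt10a, out of 19 Wnt genes in the mouse annotation. They were chosen by name, by matching the Ensembl identifiers of the table to mouse gene symbols. The rule itself uses no measured value. RNA was sequenced from 48 libraries of 24 wild-type C57BL/6J mice, which the series record gives as 6 to 8 weeks old (the methods of the study give a somewhat older range), with both sexes in each group. Each mouse had received a unilateral injection of saline or of kainate into the hippocampus, and its dorsal dentate gyri were taken 3, 7 or 14 days later. Kainate is a glutamate receptor agonist that sets off status epilepticus, a prolonged seizure, and the dentate gyrus of the injected side is called the epileptogenic zone (EZ) and that of the opposite side the peri-ictal zone (PIZ). Each mouse gave 1 EZ and 1 PIZ library, so that region, injection and day define 12 groups of 4 mice. The tissue was dissected by hand, the control animals had received the same surgery with saline, and no library is from an uninjected mouse.

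Wnt ligands are secreted, lipid-modified glycoproteins. A cell that makes them attaches a fatty acid with Porcn and releases them with the carrier Wls, and a receiving cell reads them through Frizzled receptors and co-receptors such as Lrp5, Lrp6, Ror1 and Ror2. Signals through Lrp5 and Lrp6 stabilize beta-catenin, which acts with Lef and Tcf factors on target genes, whereas Wnt4, Wnt5a and Wnt5b are best known for signals that do not need beta-catenin. In the hippocampus, Wnt ligands take part in the birth and maturation of granule cells and in the growth of dendrites and synapses.

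The 48 libraries held 17762656 to 25712975 counts each, and the median was 22108562.5. The granule cell markers, among them Prox1 and Stxbp6, were detected in every group, as were markers of the neighbouring CA1 field, whose values are given with Wnt2. The sum of the 8 granule cell markers was 474.5 to 874 CPM in the EZ of kainate mice at day 3 and 980.0 to 1220 CPM in saline mice, without overlap. There 2 of the 8 were downregulated, against 8.61% of all genes tested, and 3 were at day 7, against 11.9%. Marker sums nevertheless moved with the injection. The 8 microglia markers together lay between 435 and 976 CPM (read counts scaled to the library size) in the EZ of saline mice and between 1568.5 and 2697 CPM in the EZ at 3 days after kainate. Of these markers 7 were upregulated in the EZ at day 3, 8 at day 7 and 6 at day 14, and 8 were upregulated in the PIZ at day 3. Of all genes tested 16.1% and 20.6% were upregulated in the EZ at days 3 and 7 and 7.12% in the PIZ at day 3. At day 14 in the EZ 2.36% were called in either direction. Of the 6 markers of mature neurons 3 were downregulated in the EZ at day 3 and 4 at day 7, against 8.61% and 11.9% of all genes. In bulk tissue, a loss of cells of one type and a lower RNA level per cell cannot be told apart. In marker levels, 4 libraries stood apart from the others of their group. The PIZ libraries of mice 18, 21 and 39 had granule cell marker sums of 607, 428 and 544 CPM, whereas the other PIZ libraries lay between 702 and 1321 CPM. The EZ library of mouse 27, taken 14 days after kainate, had a microglia marker sum of 3443 CPM against 536 to 791 CPM in the other 3 mice of its group. Without these 4 libraries 0 of the 8 microglia markers were called in the EZ at day 14, and the counts for the EZ at days 3 and 7 and the PIZ at day 3 were the same. Of the granule cell markers 3 were then downregulated in the EZ at day 3 and 3 at day 7. Values of the ligands without these 4 libraries are given where a statement turns on them. The EZ libraries at day 7 after kainate also differed widely among themselves. Their granule cell marker sums ran from 213 to 1026 CPM and their microglia marker sums from 1848 to 6990 CPM. None of these was left out as a library that stood apart.

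All 8 ligands passed the low-count filter, but their depth differed. Wnt7b had between 597 and 3102 counts per library, Wnt5b between 17 and 113, and Wnt2 between 0 and 197. Wnt4 had 22 to 405 counts, Wnt5a 123 to 337, Wnt7a 122 to 473, Wnt9a 34 to 609 and Wnt10a 26 to 401. On the GRCm39 assembly, Wnt2 lies at chr6:17985468-18031892 on the minus strand, Wnt5b at chr6:119409323-119521897 on the minus strand and Wnt7a at chr6:91340959-91388460 on the minus strand. Wnt4 lies at chr4:137004373-137027037 on the plus strand, Wnt5a at chr14:28226495-28249405 on the plus strand and Wnt7b at chr15:85419638-85466674 on the minus strand. Wnt9a lies at chr11:59197567-59224378 on the plus strand and Wnt10a at chr1:74830675-74844355 on the plus strand. All but Wnt2 and Wnt4 overlap a long non-coding RNA gene on the opposite strand, from which counting by strand keeps them apart. Wnt5b also overlaps the non-coding Gm68838 on its own strand, so that its counts may be less certain. These overlaps are from a later Gencode release than the one the study counted against. Whether the deposited counts of Wnt5b are affected is not known.

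In saline mice, Wnt7b was the most abundant of the 8 ligands. Levels between genes were compared per kilobase of exon, as the mean of the EZ and PIZ of each of 12 saline mice. Wnt7b stood at 7.93 ± 0.761 CPM per kilobase (SD, n = 12), Wnt9a at 3.75 ± 1.03 and Wnt7a at 3.07 ± 0.439. Wnt4 followed at 1.07 ± 0.531 and Wnt5a at 1.07 ± 0.137, then Wnt10a at 0.494 ± 0.0739, Wnt2 at 0.290 ± 0.0818 and Wnt5b at 0.217 ± 0.0531. Wnt7b exceeded Wnt9a in 12 of 12 mice, Wnt7a exceeded Wnt4 in 12 of 12, and Wnt5a exceeded Wnt10a in 12 of 12. Other neighbours were not separated. Wnt9a exceeded Wnt7a in 10 of 12 mice, Wnt4 exceeded Wnt5a in 3 of 12, Wnt10a exceeded Wnt2 in 11 of 12 and Wnt2 exceeded Wnt5b in 9 of 12. When the longest transcript set the length, Wnt5a at 1.19 lay above Wnt4 at 1.13 CPM per kilobase, and the other places did not change.

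No ligand was called between sides or days in saline mice. With called defined as an adjusted p under 0.01 in edgeR's quasi-likelihood test together with a change over 1.5-fold, 0 of 8 ligands differed between the EZ and the PIZ of saline mice, where 0.0234% of all 21390 genes tested were called. At an unadjusted p under 0.05 there was 1, Wnt4, which was lower in the EZ by a log2 difference of -0.66 (SE 0.29). Without the 4 libraries that stood apart that difference was -0.13. Between days 14 and 3 in the saline EZ, 0 of 8 ligands were called, where 0% of all genes were called, and 0 had an unadjusted p under 0.05. DESeq2 and limma-voom also called 0 ligands in both comparisons.

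Kainate upregulated Wnt7b, Wnt10a and Wnt5b and downregulated Wnt9a in the EZ at day 3. By day 7 in the EZ Wnt5b and Wnt10a were called higher, and in the PIZ at day 3 Wnt7b and Wnt10a were called higher and Wnt9a lower. No ligand was called at day 14 on either side. In edgeR with all libraries, Wnt2, Wnt4, Wnt5a and Wnt7a were called in no comparison. In counts, 3 of 8 ligands were upregulated in the EZ at day 3, where 16.1% of all genes tested were, and 1 was downregulated, where 8.61% of all genes were. At day 7 in the EZ, 2 of 8 were upregulated against 20.6% of all genes and 0 were downregulated against 11.9%. Of the 8 ligands 2 were upregulated in the PIZ at day 3 against 7.12% of all genes, and 1 was downregulated against 1.57%. The median log2 fold change of the 8 ligands was 0.07 in the EZ at day 3, 0.30 in the EZ at day 7 and -0.07 in the PIZ at day 3, while that of all genes was 0.03, 0.01 and 0.02. The number of ligands called in these 3 comparisons was the same without the 4 libraries that stood apart.

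In the remaining comparisons of kainate with saline no ligand was called. At day 14 in the EZ, 0 of 8 were called, where 2.36% of all genes were, 2 had an unadjusted p under 0.05, DESeq2 called 0 and limma-voom called 1. Without the 4 libraries that stood apart the count of ligands was also 0, but the share of all genes was 0.037%. At day 7 in the PIZ, 0 of 8 were called against 0.201% of all genes, 2 had an unadjusted p under 0.05, and DESeq2 and limma-voom each called 1. Here too the count was 0 without the 4 libraries, with 1.85% of all genes called. At day 14 in the PIZ, 0 of 8 were called against 0.014% of all genes, 1 had an unadjusted p under 0.05, DESeq2 called 0 and limma-voom called 1. The ligand in all of these calls was Wnt9a.

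**Figure D1:**
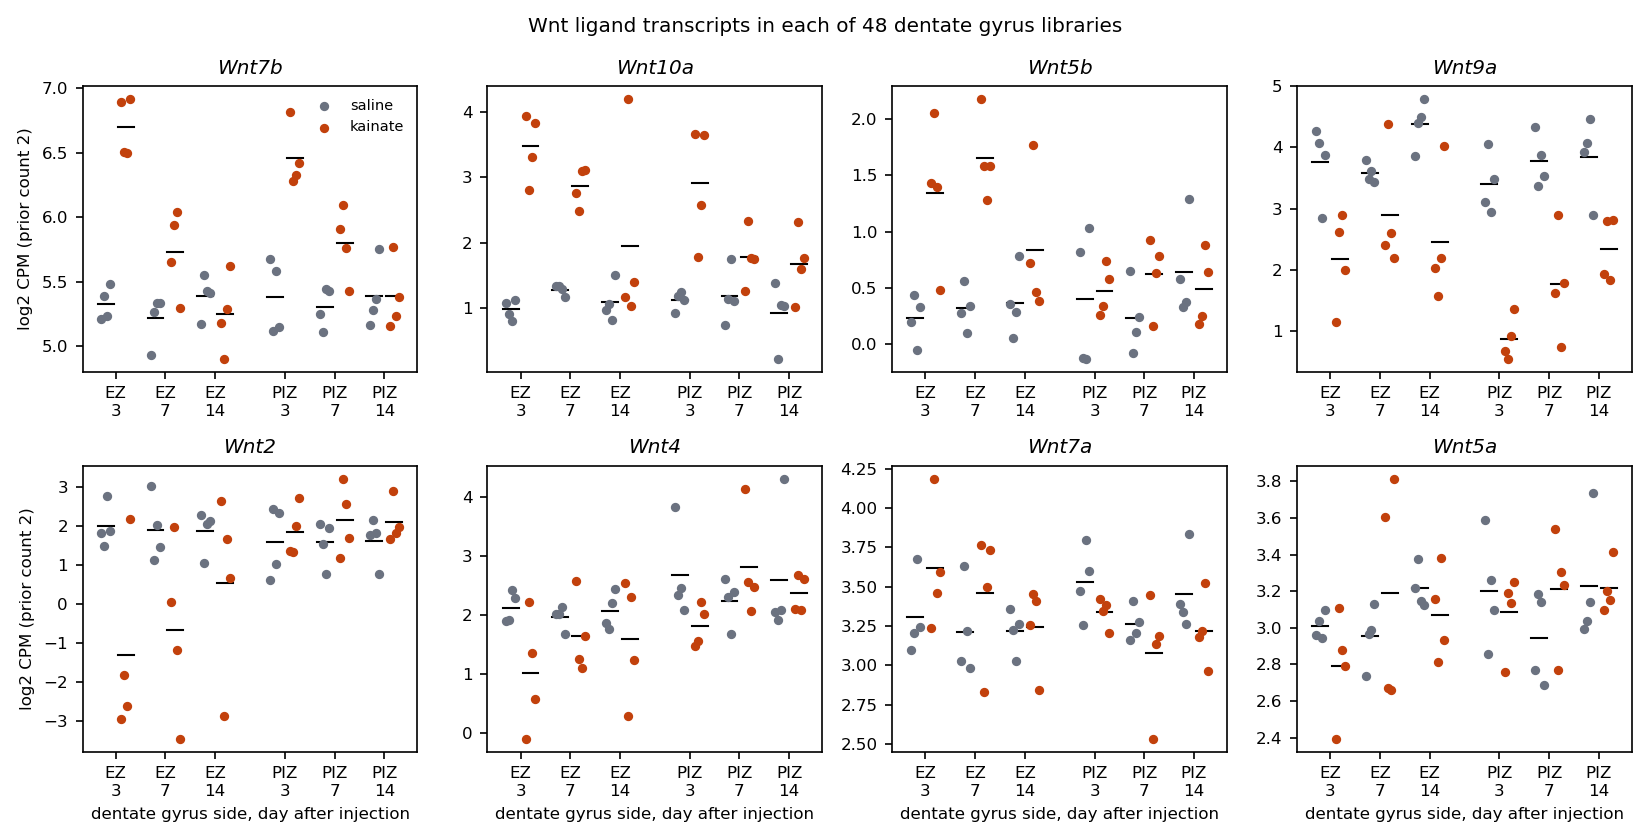
Each panel plots 1 ligand as log2 CPM (prior count 2) in the 48 libraries, by side and day after injection, with saline in grey, kainate in orange and a line at the mean of each group of 4 mice. Wnt7b and Wnt10a of all kainate mice lie above all saline mice on both sides at day 3, Wnt5b does so in the EZ at days 3 and 7, and Wnt9a of kainate mice lies below saline in the PIZ on all 3 days.

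**Figure D2:**
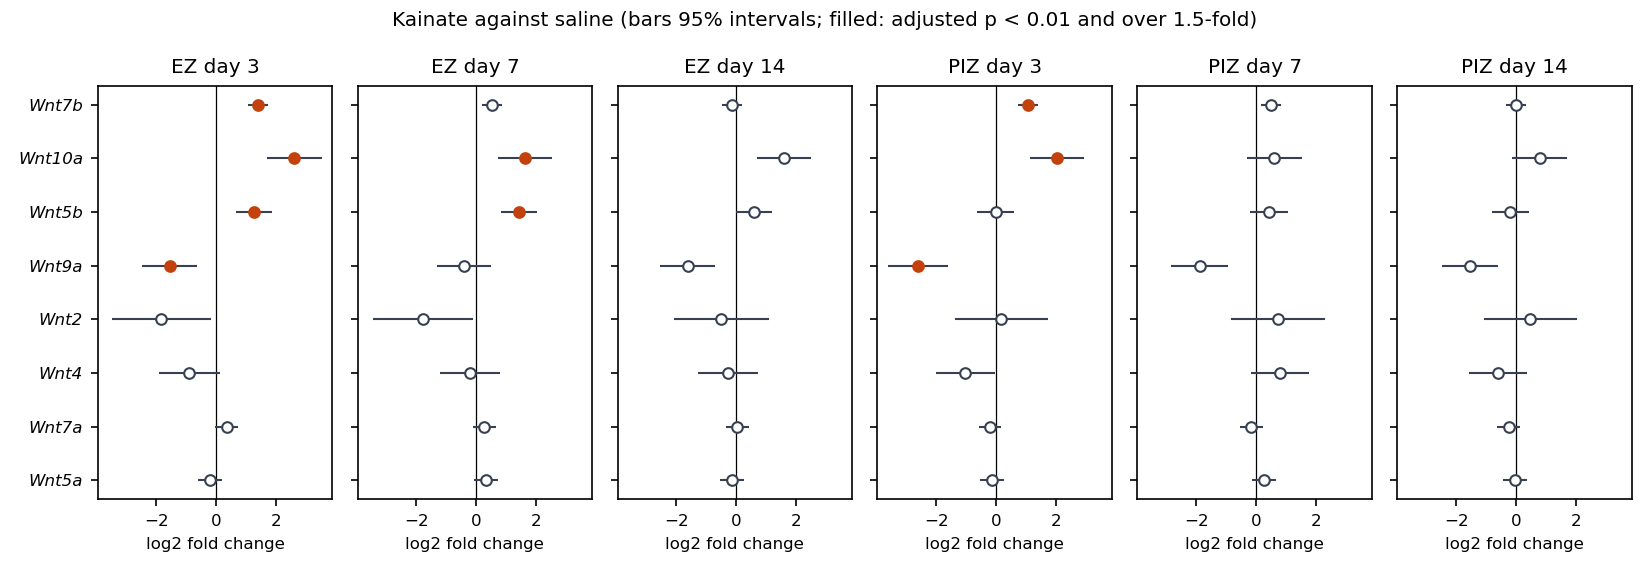
The log2 fold change of kainate against saline is plotted for each of the 8 ligands on each side and day, with its 95% interval, and filled points mark an adjusted p under 0.01 with a change over 1.5-fold. Filled points stand at Wnt7b, Wnt10a, Wnt5b and Wnt9a in the EZ at day 3, at Wnt10a and Wnt5b in the EZ at day 7 and at Wnt7b, Wnt10a and Wnt9a in the PIZ at day 3.

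Wnt7b, which with Wnt7a signals to brain blood vessels through Adgra2 and Reck and is also made by neurons, had the largest change in level. In the EZ at day 3 it stood at 119, 90.5, 90.1 and 121 CPM in the 4 kainate mice and at 36.9, 41.8, 37.5 and 44.6 CPM in the 4 saline mice. All kainate libraries were above all saline libraries. The change was 2.61-fold, a log2 fold change of 1.39 (SE 0.17) with an adjusted p of 1.08e-07 in edgeR's quasi-likelihood test. At day 3 Wnt7b in the PIZ stood at 112, 77.6, 80.1 and 85.3 CPM after kainate and at 51.0, 34.7, 47.9 and 35.5 CPM after saline, again with no overlap. There the change was 2.10-fold, with a log2 fold change of 1.07 (SE 0.17) and an adjusted p of 1.93e-05. At day 7 in the EZ the kainate mice had 50.3, 61.3, 65.9 and 39.2 CPM and the saline mice 30.5, 38.5, 40.2 and 40.2 CPM, so that 1 kainate library lay within the saline range. The log2 fold change at day 7 was 0.54 (SE 0.17) in the EZ, with an adjusted p of 0.00674 in edgeR, but at 1.45-fold it stayed under the fold threshold. Without mouse 35 it was 0.67 and passed. The PIZ value at day 7 was a log2 fold change of 0.51 (SE 0.17), with an adjusted p of 0.126. At day 14 the log2 fold changes were -0.13 in the EZ and 0.00 in the PIZ, each with an SE of 0.17, and the groups overlapped on both sides. The log2 level of Wnt7b and the log2 sum of oligodendrocyte precursor markers correlated with r = 0.590 over 48 libraries (-0.361 after removal of group means). With astrocyte markers r was 0.518 (-0.0736), with mature neuron markers -0.462 (0.422) and with thalamus markers -0.372 (-0.691). The part of any of these cells in the Wnt7b level was not tested.

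Wnt10a, a beta-catenin-type ligand best known from teeth and skin, had the largest rise in fold terms among the 8. In the EZ at day 3 it stood at 15.2, 6.92, 9.83 and 14.1 CPM after kainate, from 181 to 398 counts, and at 2.03, 1.80, 1.66 and 2.09 CPM after saline, from 36 to 46 counts. The groups did not overlap. The change was 6.06-fold, with a log2 fold change of 2.60 (SE 0.46) and an adjusted p of 2.31e-05 in edgeR. In the PIZ at day 3 the kainate mice had 12.6, 3.35, 5.87 and 12.4 CPM and the saline mice 1.81, 2.19, 2.30 and 2.10 CPM. Mice 30 and 44 were highest on both sides. The PIZ change was 4.07-fold, with a log2 fold change of 2.02 (SE 0.46) and an adjusted p of 0.00128. At day 7 Wnt10a stood at 6.66, 5.51, 8.42 and 8.50 CPM in the EZ of kainate mice and at 2.45, 2.43, 2.37 and 2.17 CPM in saline mice. These groups did not overlap either. The EZ change at day 7 was 3.09-fold, with a log2 fold change of 1.63 (SE 0.45) and an adjusted p of 0.00245. The log2 fold change in the PIZ at day 7 was 0.61 (SE 0.46) and did not pass.

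At day 14, 1 library set the value of Wnt10a in the EZ. Mouse 27 had 401 counts, or 18.2 CPM, whereas the other 3 kainate mice had 35 to 61 counts, or 1.97 to 2.55 CPM, and the saline mice 1.67 to 2.76 CPM. The log2 fold change of 1.58 (SE 0.46, adjusted p 0.0325 in edgeR) was 0.10 without mouse 27. Without mouse 14, 36 or 40 it passed, at 1.86, 1.87 and 1.84. In the same library the microglia marker sum was 3443 CPM, the astrocyte marker sum 11939 CPM against 5813 to 6616 CPM in the other 3 mice, and Wnt10a in the PIZ of mouse 27 was 4.87 CPM. Over the 48 libraries the log2 level of Wnt10a and the log2 sum of microglia markers correlated with Pearson's r = 0.786, and with r = 0.540 after removal of the 12 group means. With the sum of astrocyte markers r was 0.766, and 0.617 after removal, with mature neuron markers -0.748 and -0.317, with CA1 markers -0.739 and -0.394, and with markers of oligodendrocyte precursors 0.718 and 0.330. Each point is 1 library, from which both levels come, and the part of any of these cells in the Wnt10a level was not tested.

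Wnt5b, a close relative of Wnt5a, was upregulated on the injected side, and no PIZ comparison called it. In the EZ at day 3 it stood at 2.60, 4.06, 2.54 and 1.30 CPM after kainate, from 31 to 106 counts, and at 1.06, 1.26, 0.88 and 1.17 CPM after saline, from 19 to 28 counts. The lowest kainate library, of mouse 44, lay just above the highest saline library. The change was 2.40-fold, with a log2 fold change of 1.26 (SE 0.31) and an adjusted p of 0.000942 in edgeR. Without mouse 38 it was 0.98 and lost its call. At day 7 the kainate mice had 4.43, 2.91, 2.34 and 2.90 CPM and the saline mice 1.12, 1.39, 0.98 and 1.18 CPM, again with no overlap. There the change was 2.68-fold, with a log2 fold change of 1.42 (SE 0.31) and an adjusted p of 0.000168. In the PIZ the log2 fold changes were -0.01, 0.43 and -0.19 at days 3, 7 and 14, with SE between 0.31 and 0.32, and the groups overlapped on each day. At day 14 in the EZ the log2 fold change was 0.59 (SE 0.31), and without mouse 27, the highest library at 3.31 CPM, it was 0.14.

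The EZ libraries with the highest Wnt5b on each day were those of mice 38, 21 and 27. In each of these groups the same mouse also had the highest sum of 8 markers of meninges and fibroblasts, of which Igf2 and Dcn are the most abundant. That sum was 337 CPM in mouse 38, 417 CPM in mouse 21 and 132 CPM in mouse 27, against 49.9 to 106 CPM in the saline EZ. Of these markers 4 were upregulated in the EZ at day 3 and 5 at day 7, where 1 was downregulated. Of all genes 16.1% and 20.6% were upregulated on these days, and 11.9% were downregulated at day 7. The log2 level of Wnt5b and the log2 sum of these markers correlated with r = 0.709 over 48 libraries, and with r = 0.532 after removal of group means. Other lists were as close, with r = 0.718 (0.490 after removal) for mural cells, 0.711 (0.443) for microglia, -0.715 (-0.558) for granule cells and -0.760 (-0.430) for mature neurons. The part of any of these cells in the Wnt5b level was not tested.

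Wnt9a, which is known from joint and liver development and is close to Wnt7a in level in saline mice, was the only ligand called lower in edgeR with all libraries. In the PIZ at day 3 it stood at 1.52, 1.37, 1.81 and 2.48 CPM in kainate mice, from 34 to 62 counts, and at 8.49, 16.5, 7.63 and 11.1 CPM in saline mice, from 176 to 340 counts. All kainate libraries were below all saline libraries, and the change was 6.07-fold lower, with a log2 fold change of -2.60 (SE 0.51) and an adjusted p of 0.000304 in edgeR. In the EZ at day 3 the kainate mice had 2.14, 6.08, 7.40 and 3.91 CPM and the saline mice 19.2, 16.7, 7.10 and 14.7 CPM. Mouse 37, the low saline mouse, lay within the kainate range and was also the lowest saline mouse of its day in the PIZ. The EZ change was 2.94-fold lower, with a log2 fold change of -1.56 (SE 0.47) and an adjusted p of 0.0063. The log2 level of Wnt9a and the log2 sum of granule cell markers, which was also lower in this group, correlated with r = 0.526 over 48 libraries (0.424 after removal of group means). For other lists r was -0.475 (-0.438 after removal) with oligodendrocyte precursor, 0.443 (0.359) with mature neuron and -0.430 (-0.239) with microglia markers. In the PIZ at day 3 the granule cell marker sums overlapped, at 702 to 918 CPM after kainate and 607 to 1262 CPM after saline. The part of any of these cells in the Wnt9a level was not tested. The call in the EZ is weak, since it was lost when any of mice 18, 29, 30, 38, 41 or 44 was left out, at log2 fold changes from -1.68 to -1.31.

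Low Wnt9a values were also measured at later days without passing the threshold. In the PIZ the kainate libraries lay below all saline libraries at day 7, at 2.99, 7.39, 1.59 and 3.36 CPM against 20.1, 10.3, 14.6 and 11.5 CPM, with a log2 fold change of -1.88 (SE 0.48) and an adjusted p of 0.0366. Without mouse 23, the highest of the kainate mice, it was -2.42 and passed. At day 14 in the PIZ they stood at 3.72, 6.88, 3.50 and 6.93 CPM against 15.2, 16.6, 22.1 and 7.34 CPM, again without overlap, with a log2 fold change of -1.54 (SE 0.47) and an adjusted p of 0.342. For 4 against 4 mice without overlap an exact two-sided permutation test gives p = 0.0286, its smallest value, and thus adds nothing to the absence of overlap in the PIZ. In the EZ the exact permutation p of Wnt9a was 0.0571, 0.171 and 0.0571 at days 3, 7 and 14. At day 14 in the EZ, 3 kainate mice had 2.90 to 4.50 CPM and mouse 40 had 16.1 CPM, against 14.4 to 27.6 CPM in saline mice. That log2 fold change was -1.62 (SE 0.47, adjusted p 0.0316), and without mouse 40 it was -2.50 and passed. Without the 4 libraries that stood apart it was -1.36, with an adjusted p of 0.569. On day 7 in the EZ, mouse 23 had 20.8 CPM, above all saline mice, the other 3 kainate mice had 4.48 to 5.97 CPM against 10.7 to 13.8 CPM, and the log2 fold change was -0.40 (SE 0.46). Without mouse 23 it was -1.19 (adjusted p 0.0188) and did not pass, and leaving out the other mice in turn gave values up to -0.17, without mouse 35.

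Across all genes, groups of 4 without overlap were common. On the injected side at day 3, 42.4% of all genes tested did not overlap, and 3 ligands were among them. At day 7 in the EZ the share was 43.8%, with 2 ligands. In the PIZ at day 3 it was 30.7%, with 3 ligands, and at days 7 and 14 it was 12.9% and 7.18%, with Wnt9a each time. At day 14 in the EZ, 8% of all genes and 0 ligands did not overlap.

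Wnt2, a beta-catenin-type ligand whose transcript is known to follow neuronal activity, was near 0 in part of the EZ libraries after kainate. At day 3, mice 30, 38 and 42 had 1, 5 and 2 counts and mouse 44 had 106 counts, whereas the saline mice had 78, 61, 147 and 74 counts. At day 7 mice 21, 23, 26 and 35 had 24, 75, 9 and 0 counts against 48 to 158 counts in saline mice, and at day 14 mouse 27 had 1 count against 36 to 123 counts in the other 3 kainate mice. A count of 0 at this depth allows up to 3 counts. At days 3 and 7 the kainate mouse with the highest count lay within the saline range, so the groups overlapped. The log2 fold change was -1.83 (SE 0.85, adjusted p 0.0718 in edgeR) at day 3 and -1.77 (SE 0.85, adjusted p 0.0737) at day 7, and neither passed. This depended on the fit, since at day 3 limma-voom with quality weights gave -5.12 (SE 1.11, adjusted p 0.000109) and limma with the mouse as a replicate block -3.96 (SE 1.24, adjusted p 0.00827), which both passed. DESeq2 gave -1.83 (SE 0.92, adjusted p 0.087) and did not call Wnt2. Without mouse 44 the day 3 value was -5.29, and without mouse 23 the day 7 value was -3.25, and both then passed. In the PIZ the kainate mice had 48 to 197 counts at all days, and the log2 fold changes were 0.17, 0.73 and 0.48 with SE of 0.79.

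The EZ libraries with little Wnt2 were those with few transcripts of CA1 pyramidal neurons, the neighbouring hippocampal field. The sum of 4 CA1 markers, of which Mpped1 and Fibcd1 are the most abundant, was 68.3, 56.9 and 77.0 CPM in mice 30, 38 and 42 at day 3 and 167 CPM in mouse 44. In the saline EZ it lay between 195 and 515 CPM. At day 7 it was 56.1 CPM in mouse 35, which had no Wnt2 count, and 153 CPM in mouse 23, which had the most. In mouse 27 at day 14 it was 58.4 CPM. Of these 4 markers 2 were downregulated in the EZ at day 3 and 3 at day 7 (4 on each day without the 4 libraries that stood apart), and 1 was downregulated in the PIZ at day 3. With all libraries 8.61%, 11.9% and 1.57% of all genes were downregulated in these comparisons. Over the 48 libraries the log2 level of Wnt2 correlated with the log2 sum of CA1 markers with r = 0.855, and with r = 0.798 after removal of the 12 group means. Wnt2 also correlated with the sums of mature neuron markers, at 0.737 (0.565 after removal), and of choroid plexus markers, at 0.710 (0.721). How much of the Wnt2 signal came from CA1 tissue in the dissection was not tested.

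**Figure D3:**
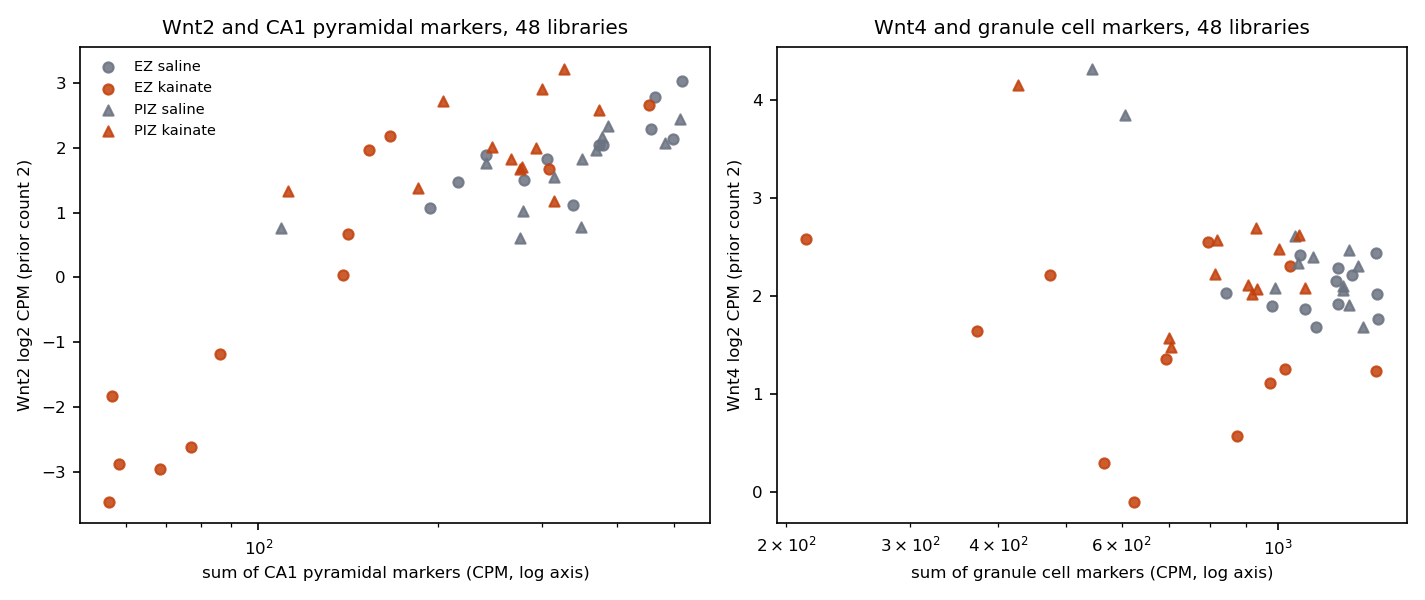
The left panel plots Wnt2 in log2 CPM against the summed CPM of 4 CA1 pyramidal markers on a log axis, and the right panel Wnt4 against the summed CPM of 8 granule cell markers, with 1 point for each of 48 libraries. The EZ kainate libraries with 0 to 9 counts of Wnt2 have 56.1 to 86.2 CPM of CA1 markers, and 3 PIZ libraries with 428 to 607 CPM of granule cell markers have the 3 highest values of Wnt4.

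Wnt4, known from kidney and ovary development, passed in no comparison. In the EZ at day 3 it stood at 0.84, 4.55, 2.47 and 1.39 CPM after kainate and at 3.62, 3.69, 5.26 and 4.77 CPM after saline, with a log2 fold change of -0.90 (SE 0.51) and an adjusted p of 0.147 in edgeR. For the PIZ at day 3 the value was -1.03 (SE 0.50, adjusted p 0.131). Its highest values were in 3 PIZ libraries, of mouse 39 at 19.8 CPM, mouse 21 at 17.6 CPM and mouse 18 at 14.2 CPM, while the other 45 libraries lay between 0.84 and 6.35 CPM. Mice 18 and 39 had received saline and mouse 21 kainate, and their EZ libraries had 3.62, 5.34 and 5.88 CPM. These are the 3 PIZ libraries with the lowest granule cell marker sums. Without the 4 libraries that stood apart the PIZ log2 fold changes were -0.46 at day 3, 0.10 at day 7 and 0.38 at day 14, instead of -1.03, 0.79 and -0.61. The log2 level of Wnt4 and the log2 sum of granule cell markers correlated with r = -0.135 over 48 libraries, and with r = -0.537 after removal of group means. For other lists r was 0.569 (0.335 after removal) with CA1, -0.530 (-0.475) with astrocyte, -0.488 (-0.198) with microglia and 0.0793 (0.422) with meninges and fibroblast markers, and the part of the dissection in these values was not tested.

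Wnt7a, the partner of Wnt7b, and Wnt5a, the best studied ligand of the beta-catenin-independent branch, varied little. Over the 6 comparisons of kainate with saline, the log2 fold change of Wnt7a lay between -0.24 and 0.34 and that of Wnt5a between -0.20 and 0.32, with SE from 0.19 to 0.20. For Wnt7a in the EZ at day 3 the 95% interval was -0.04 to 0.72. For Wnt5a in the EZ at day 7 it was -0.07 to 0.72. Changes up to those bounds are not excluded by these data. Wnt5a stood in the EZ at day 7 at 12.1 and 14.0 CPM in mice 21 and 35 and at 6.27 and 6.24 CPM in mice 23 and 26, against 6.58 to 8.66 CPM in saline mice. Mice 21 and 35 were the mice of that group with the low granule cell marker sums, at 213 and 374 CPM against 1026 and 975 CPM.

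The difference between the effects of kainate on the EZ and on the PIZ was tested directly, and no ligand passed. At day 3, 0 of 8 ligands were called, where 0.0655% of all genes were (0.657% without the 4 libraries that stood apart), 1 had an unadjusted p under 0.05, DESeq2 called 0 and limma-voom called 1, Wnt2. For Wnt5b, the EZ effect exceeded the PIZ effect by 1.28 (SE 0.44) on the log2 scale at day 3, with an adjusted p of 0.128 in edgeR, and by 0.99 (SE 0.45) at day 7, with an adjusted p of 0.09. The call of Wnt5b in the EZ alone therefore does not show a difference between regions. At day 7, 0 of 8 ligands were called against 9.89% of all genes, and 3 had an unadjusted p under 0.05, namely Wnt2 at -2.50 (SE 1.17, adjusted p 0.103), Wnt5b, and Wnt9a at 1.48 (SE 0.66, adjusted p 0.0885). DESeq2 and limma-voom called 0 ligands there. At day 14, 0 of 8 were called against 0% of all genes, and 0 had an unadjusted p under 0.05, with 0 called by DESeq2 or limma-voom.

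Within kainate mice, the 2 sides could be set side by side in the same animal. Wnt10a and Wnt9a were higher in the EZ than in the PIZ in 4 of 4 kainate mice at day 3 and in 4 of 4 at day 7, and Wnt5b in 3 of 4 and 4 of 4. Wnt7b was higher in the EZ in 4 of 4 and 1 of 4, and Wnt7a in 3 of 4 and 4 of 4. Wnt2 was higher in the EZ in 0 of 4 kainate mice on either day, Wnt4 in 1 of 4 and 0 of 4, and Wnt5a in 0 of 4 and 2 of 4. At day 14 the numbers were 2 of 4 for Wnt10a, 3 for Wnt9a, 2 for Wnt5b and 1 for Wnt2. In saline mice they were 1 to 3 of 4 for Wnt10a, Wnt9a and Wnt2 on each of the 3 days, and 2, 2 and 0 of 4 for Wnt5b at days 3, 7 and 14. For Wnt4 they were 1 of 4 on each day, for Wnt5a 2, 1 and 3, for Wnt7a 0, 2 and 0, and for Wnt7b 2, 1 and 3 of 4, so that the low counts of Wnt4 were also seen in saline mice. With 4 pairs these counts are given as a description.

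The change of the kainate effect between days was likewise not called for any ligand. Between days 7 and 3 in the EZ, 0 of 8 were called against 0.145% of all genes (1.1% without the 4 libraries that stood apart), 1 had an unadjusted p under 0.05, and DESeq2 and limma-voom called 0. This was Wnt7b, whose effect was lower at day 7 by a log2 difference of -0.85 (SE 0.24, adjusted p 0.0909 in edgeR, and 0.024 without those libraries). Between days 14 and 7 in the EZ, 0 of 8 were called against 0.271% of all genes, a share that was 19.7% without the 4 libraries that stood apart. In edgeR with all libraries 1 had an unadjusted p under 0.05, DESeq2 called 0 and limma-voom called 1, Wnt5b. The former was again Wnt7b, at -0.67 (SE 0.24, adjusted p 0.0525). For Wnt10a the difference between days 14 and 7 was -0.04 with all libraries, and without mouse 27 it was -1.52 and passed.

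Wnt7b made up most of the Wnt transcripts on both sides at day 3 after kainate. When the levels per kilobase of all 19 Wnt genes were summed in each library, the sum stood at 18.7 ± 0.882 CPM per kilobase (SD, n = 4) in the saline EZ at day 3 and at 32.3 ± 2.62 in the kainate EZ. The PIZ sum at day 3 was 19.2 ± 1.75 after saline and 26.3 ± 3.84 after kainate. The 8 ligands held between 90.7% and 95.6% of that sum in the 12 groups. Wnt7b alone held 41.9% ± 2.39 of it in the saline EZ and 63.2% ± 6.30 in the kainate EZ at day 3, and 42.5% ± 4.84 and 65.8% ± 3.70 in the PIZ. At day 14 its share in kainate mice was 43.5% ± 7.17 (EZ) and 47.7% ± 2.87 (PIZ). The sum is a total over transcripts, and says nothing of the protein released.

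**Figure D4:**
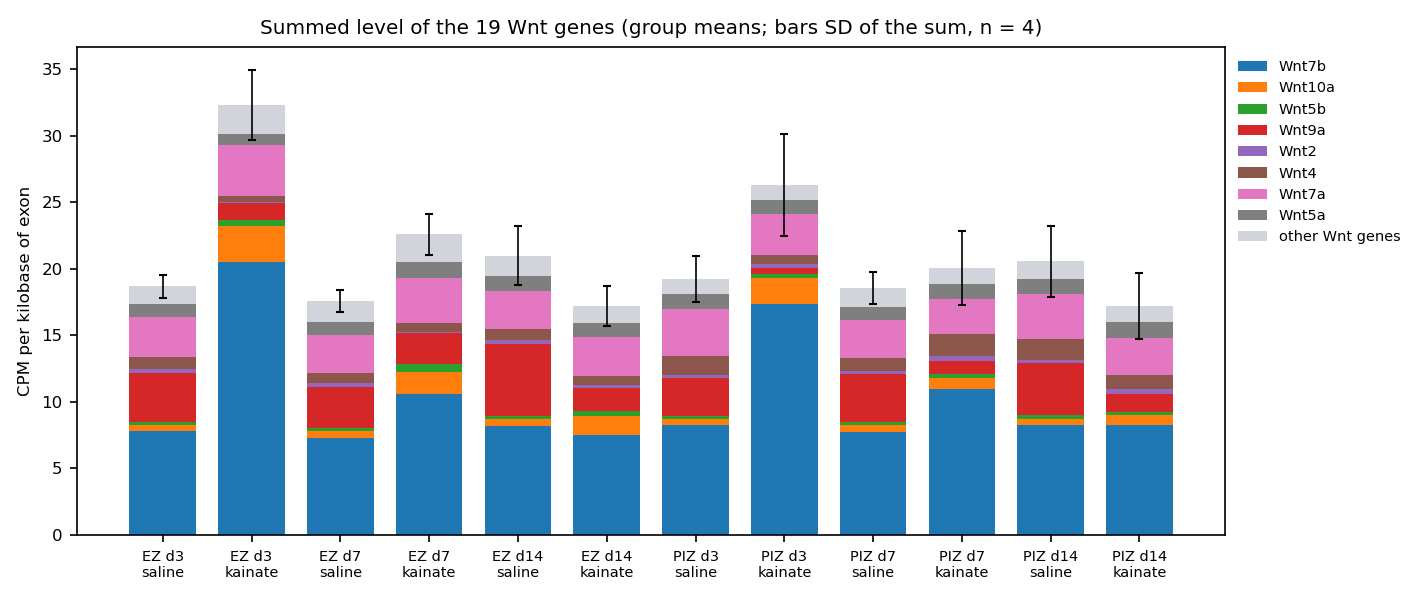
Stacked bars give the group mean level of each of the 8 ligands and of the other Wnt genes together, in CPM per kilobase of exon, for the 12 groups, and the error bar is the SD of the sum over 4 mice. The kainate bars at day 3 are the tallest on each side, and most of their added height is Wnt7b.

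The other 11 Wnt genes together held the smaller part of the sum, although Wnt3 at 0.465 and Wnt9b at 0.301 CPM per kilobase in saline mice were of the order of Wnt2 and Wnt5b. Of these genes 7 passed the low-count filter, and Wnt1, Wnt3a, Wnt6 and Wnt8a did not. Wnt2b had 17 to 81 counts in the EZ at day 3 after kainate and 1 to 4 after saline, a log2 fold change of 3.60 (SE 0.69). It passed the low-count filter through this kainate group, since all groups but those of kainate at day 3 had 0 to 9 counts, and its difference is given as a description. Wnt10b had 14 to 106 counts there against 5 to 15, a log2 fold change of 2.44 (SE 0.52). Wnt10b was upregulated. At day 7 in the EZ Wnt10b (2.27, SE 0.51) and Wnt8b (2.32, SE 0.56) were upregulated, and Wnt9b (-3.21, SE 0.56) and Wnt11 (-2.45, SE 0.75) were downregulated, with 2 to 10 counts of Wnt9b against 20 to 58. Wnt3 was called in no comparison. Wnt1 was counted 0, 11, 17 and 20 times in the EZ of the 4 kainate mice at day 3 and 0 times in every saline library of that day, but was too low to be tested with all libraries. It passed the filter without the 4 libraries that stood apart, and through the group in which it was high, so that no test of it is given. Its gene overlaps Wnt10b on the opposite strand, and counting was by strand. In the PIZ 0 of these genes were called with all libraries. Wnt8b at day 3 then came nearest, with a PIZ log2 fold change of 2.38 (SE 0.70) and an adjusted p of 0.0114 in edgeR. Without the 4 libraries that stood apart 1 of 8 genes was called higher in the PIZ at day 3, where 9.62% of all genes were called. In the EZ at day 3 it was 4 of 8, against 26.7%. The 8 genes take in Wnt1 and Wnt2b, so these counts are given as a description. Wnt16 had log2 fold changes of -1.22, -1.60 and -1.01 at days 3, 7 and 14 in the PIZ and adjusted p of 0.0153, 0.0237 and 0.581 in edgeR.

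The machinery that releases and receives Wnt ligands was then read from lists of pathway genes. In the release list of 6 genes, Wls was upregulated in the EZ at day 3 (log2 fold change 0.64, SE 0.20) and at day 7 (1.22, SE 0.20), while Porcn was downregulated at day 7 (-0.61, SE 0.14). Notum, an enzyme that removes the fatty acid from Wnt ligands, was downregulated at day 3 (-1.03, SE 0.23), and Trabd2b, a protease that inactivates them, at days 7 and 14 (-1.54 and -1.62, SE 0.37), the latter not without the 4 libraries that stood apart. Tmed5, a cargo protein of the secretory route, was upregulated at day 7 (0.60, SE 0.20), and the abundant Tmed2 was not called. In the PIZ 0 of the 6 genes were called. Of all genes 16.1% and 20.6% were upregulated in the EZ at days 3 and 7, and 8.61% and 11.9% were downregulated. At day 14 in the EZ 2.36% were called, and in the PIZ at day 3 7.12% were upregulated and 1.57% downregulated.

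Of the 10 Frizzled receptors 3 were upregulated in the EZ at day 3 and 6 at day 7, and 0 were downregulated, where 16.1% and 20.6% of all genes were upregulated. These were Fzd1, Fzd6 and Fzd7 at day 3 and these genes with Fzd5, Fzd8 and Fzd9 at day 7. Fzd1 had log2 fold changes of 1.61 (SE 0.26) and 1.73 (SE 0.26), and the most abundant receptors, Fzd3 and Fzd4, were not called. The list median was 0.64 at day 3 and 1.01 at day 7, and that of all genes 0.03 and 0.01. Of 8 co-receptors 3 were upregulated and 1 was downregulated on both days, where 8.61% and 11.9% of all genes were downregulated and the shares upregulated were as above. The former were Lrp5 (1.07 and 2.12, SE 0.25 and 0.26), Ror2 (2.17 and 1.95, SE 0.56 and 0.60) and Ptk7 (0.82 and 0.88, SE 0.18), and the latter was Ror1 (-1.43 and -0.98, SE 0.29 and 0.28). Ror1 was also downregulated in the PIZ at day 3, at -1.43 (SE 0.29), the single call among all these receptors in the PIZ. The most abundant co-receptors, Lrp6 and Ryk, were not called. Of the 8 tested genes of the R-spondin and Lgr list, Rnf43, a ligase that removes Frizzled receptors from the cell surface, was upregulated in the EZ at day 3 (0.88, SE 0.22) and day 7 (0.74, SE 0.22), and the abundant Lgr4 and Znrf3 were not called.

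Secreted antagonists moved in both directions, as did the genes as a whole. Of the 10 that could be tested, Dkk3 (-1.45, SE 0.20), the most abundant, and Wif1 (-1.49, SE 0.45) were downregulated in the EZ at day 3. There 8.61% of all genes were downregulated. At day 7 Sfrp1 (2.82, SE 0.44) and Dkk2 (2.85, SE 0.70) were upregulated while Dkk3 (-0.80, SE 0.19) and Wif1 (-1.52, SE 0.47) were downregulated. Of all genes 20.6% were upregulated and 11.9% downregulated there. Sfrp5 passed as well, with a log2 fold change of 8.57 (SE 1.53). Whether it passed the low-count filter only through the kainate libraries was not checked, so this value is given as a description. Sfrp5 was also called at day 14 in the EZ, but not without the 4 libraries that stood apart. Frzb was called on no day. Among the 9 tested genes that beta-catenin can raise, Lef1, Tcf7, Ccnd1 and Myc were upregulated in the EZ at both days 3 and 7, with log2 fold changes of 0.67, 1.12, 2.26 and 1.59 at day 3 and of 0.86, 1.34, 2.14 and 1.47 at day 7, and 0 were downregulated. Of all genes 16.1% and 20.6% were upregulated on these days. Axin2, the feedback gene most often used to read beta-catenin signaling, was not called. Its EZ log2 fold changes were -0.25 (SE 0.12) at day 3 and -0.41 (SE 0.12) at day 7, where the adjusted p of 0.00277 passed but the change was under 1.5-fold. The PIZ value at day 3 was 0.08 (SE 0.12). Apcdd1 was not called either. None of the 9 was called in the PIZ at day 3 (0 of 9). Ccnd1 and Myc also serve in cell division, and the microglia markers rose in the same EZ libraries. Which cells carried these transcripts was not tested.

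**Figure D5:**
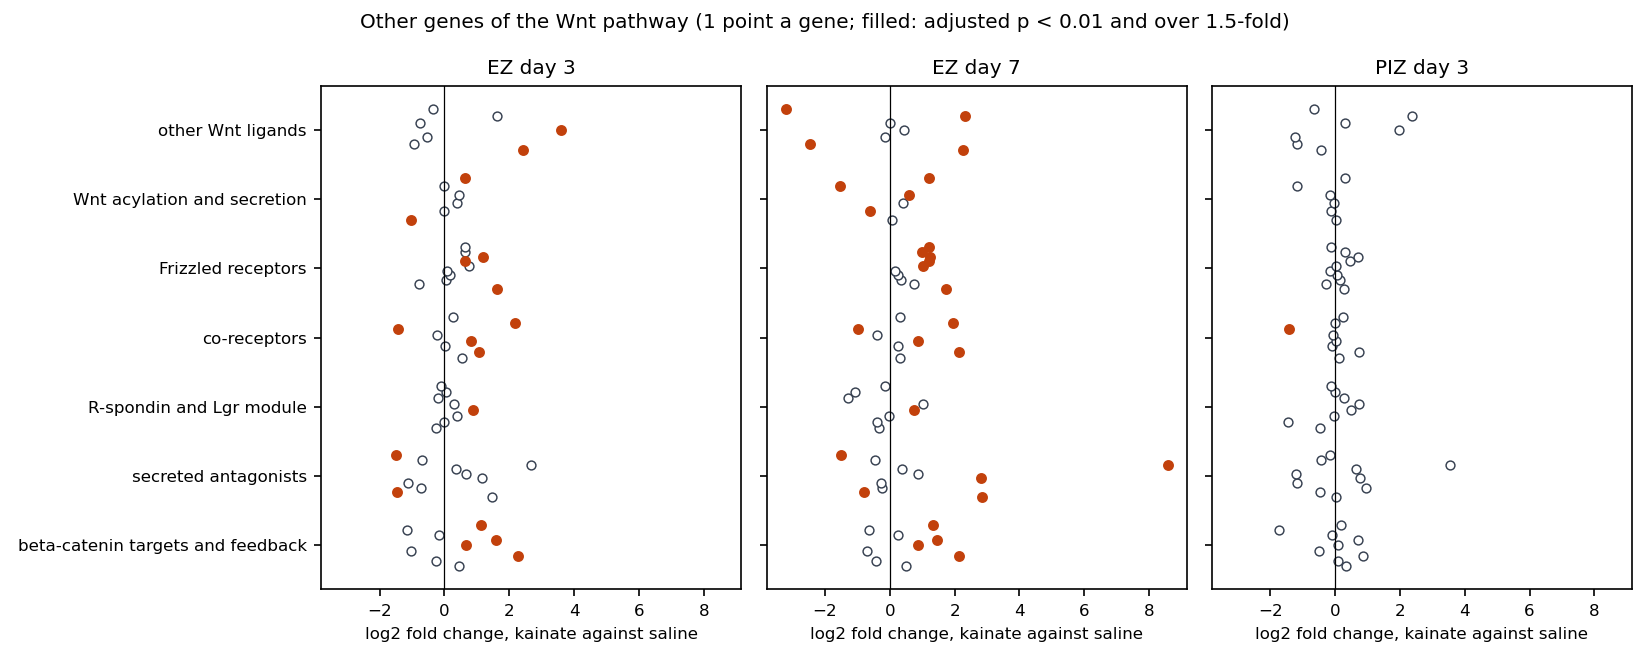
Each point is 1 gene of a Wnt pathway list, placed at its log2 fold change of kainate against saline in the EZ at days 3 and 7 and in the PIZ at day 3, and filled points passed an adjusted p under 0.01 with a change over 1.5-fold. Frizzled receptors are filled on the upregulated side in the EZ, antagonists on both sides, and in the PIZ Ror1 alone is filled.

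The genes whose profile over the 48 libraries was most like that of each ligand were found by Pearson's r of log2 CPM. For Wnt10a they were Cltb (r = 0.926, and 0.813 after removal of group means) and Igf2bp2 (0.904 and 0.738). For Wnt2 they were BC030500 (0.920 and 0.877) and Mpped1 (0.908 and 0.883), the latter being one of the 4 CA1 markers. Wnt7b was closest to Rgs4 (0.891 and 0.527) and Ttyh3 (0.862 and 0.420), whose likeness lay largely in the group means. Wnt5b was closest to Fstl1 (0.878) and Cd5 (0.854), Wnt9a to Fhip1a (0.872) and Ryr1 (0.845), and Wnt4 to Myo16 (0.868) and Nnat (0.846). For Wnt5a and Wnt7a the best values were lower, at 0.761 with Tmem132c and 0.759 with Whrn, and at 0.746 with Fgd5 and 0.726 with Eps8. Among the ligands themselves, Wnt7b and Wnt10a correlated with r = 0.675, which was 0.0656 after removal of group means, and Wnt4 and Wnt5a with r = 0.623, which was 0.620.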

How the data were processed

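The authors trimmed the reads with fastp 0.20.1, aligned them to GRCm39 with HISAT2 2.2.1 and counted them per gene and by strand with featureCounts of Subread 1.6.4 against a Gencode annotation, and deposited whole-number counts that are not normalized. Here, 98.9% of 55357 Ensembl identifiers were matched to symbols of a later Gencode release. Genes with low counts were removed with edgeR's filterByExpr over the 12 groups, which left 21390. TMM scaling and a quasi-likelihood model with a mean for each of the 12 groups were fitted to all 48 libraries in edgeR 4.0.16 (R 4.3.3), and p-values were adjusted over all genes tested by Benjamini-Hochberg. A gene was called at an adjusted p under 0.01 and a change over 1.5-fold. Levels are CPM on TMM-scaled library sizes, and log2 levels used a prior count of 2. Permutation tests were exact and two-sided. The model fit was tested on simulated data.

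The EZ and PIZ library of a mouse share its number. Their residuals correlated between -0.0536 and 0.376 over the mice, and limma 3.58.1 estimated a consensus correlation of 0.163. The main fit has no mouse term, and fits with one were alternatives. Other alternatives were DESeq2 1.42.0, limma-voom, other scalings and filters, and leaving out each mouse. Leaving out the 4 libraries that stood apart was chosen after seeing the data.

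The 8 ligands were reported in every comparison. Of other Wnt genes those that passed the filter were named, of each pathway list the 2 most abundant genes, the called genes where at most 5 were called, and Axin2, of each marker list the 2 most abundant, and for each ligand the 2 protein-coding genes with the highest correlation. Wnt1, and Frizzled receptors beyond 5 called, were named after their values were seen. The ligands and lists were chosen with earlier results of these data known. Replicates are separate mice. Wnt2 and Wnt5b have the lowest counts, and a count of 0 allows up to 3 counts, which covers counting error only. Sex was not given per sample and is not in the model.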

Additional observations from a re-analysis of the deposited data

Results flagged for a closer look

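Among 96 groups of 4 libraries, 12 for each ligand, 3 had 1 library far from the other 3. This was measured on log2 CPM, as the gap to the nearest library over the range of the group. Chance alone flags about 1 group in 20, and 3 of 96 is under that share.

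Wnt10a in the EZ of kainate mice at day 14 was far higher in mouse 27, at 18.2 CPM, than in the other 3 mice, with a gap of 0.886 of the range. Wnt4 in the PIZ of saline mice at day 14 was far higher in mouse 39, at 19.8 CPM, with a gap of 0.923 of the range. Wnt7b in the EZ of saline mice at day 7 was lower in mouse 20, at 30.5 CPM, than in the other 3 mice at 38.5 to 40.2 CPM, with a gap of 0.841 of the range. The marker sums that stood apart in the libraries of mice 27 and 39 are given with Wnt10a and Wnt4, and their part in these values was not tested.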

How the results depend on the processing

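The 9 calls of a ligand against saline gave 162 values under the alternatives, of which 153 kept the call, 9 lost it and 0 changed direction. The alternative of an adjusted p under 0.05 reused the main fit, so that its values could not lose a call. Wnt5b in the EZ at day 3 lost it with only the compared groups in the fit (1.22, adjusted p 0.011 in edgeR) and without mouse 38, and Wnt9a there with library size as the only scaling (-1.42, adjusted p 0.011) and without 6 mice in turn. The cause was not tested.

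The count of ligands called moved from 0 to 2 in the EZ at day 14 at an adjusted p under 0.05 and to 1 with limma-voom. It moved from 0 to 1 in the PIZ at day 7 at an adjusted p under 0.05, with DESeq2 and with limma-voom, and with limma-voom also in the PIZ at day 14, between days 14 and 7, and for EZ minus PIZ at day 3. In the EZ at day 3 limma-voom called 5 ligands against 4. Leaving out each mouse gave 2 to 4 ligands in the EZ at day 3, 2 to 3 in the EZ at day 7, 0 to 2 in the EZ at day 14, 0 to 1 in the PIZ at day 7 and 0 to 1 between days 14 and 7.

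Changes of sign were in log2 values that were not called. Without the 4 libraries that stood apart, PIZ day 3 gave Wnt2 -0.085, Wnt5a 0.014 and Wnt5b 0.12, PIZ day 14 gave Wnt4 0.38, Wnt5a 0.16, Wnt5b 0.089 and Wnt7b 0.13, and EZ day 14 gave Wnt4 0.021 and Wnt7a -0.039. With limma-voom, PIZ day 14 gave Wnt4 0.12, Wnt5a 0.10, Wnt5b 0.067 and Wnt7b 0.01, EZ day 14 gave Wnt4 0.15, and PIZ day 3 gave Wnt5b 0.16. With at least 10 counts in every library, Wnt5b at PIZ day 3 was 0.0045 and Wnt7b at PIZ day 14 was 0.00042. With library size only they were 0.086 and 0.022, and Wnt7b in the EZ at day 7 passed, at 0.61 (adjusted p 0.00202 in edgeR).

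Leaving out each mouse gave ranges of -1.52 to 0.24 for Wnt10a between days 14 and 7. At PIZ day 3 they were -0.21 to 0.46 for Wnt2, -0.24 to 0.014 for Wnt5a and -0.18 to 0.24 for Wnt5b. At PIZ day 14 they were -0.85 to 0.38 for Wnt4, -0.12 to 0.16 for Wnt5a, -0.35 to 0.089 for Wnt5b and -0.15 to 0.13 for Wnt7b. At EZ day 14 they were -0.63 to 0.021 for Wnt4 and -0.039 to 0.15 for Wnt7a.

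With the mouse as a replicate block by limma's duplicateCorrelation, Wnt5b at PIZ day 3 was 0.078, and Wnt2 in the EZ at day 3 passed, at -3.96. Per kilobase of the longest transcript, saline levels moved to 11.3 for Wnt7b, 0.480 for Wnt2 and 0.367 for Wnt5b.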
